A study of Mus musculus with 18 samples.

Results

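The genes described here encode proteins of synaptic vesicles and of the machinery that docks and fuses them. They are 9 named genes, Syt1, Syt5, Nsf, Vamp2, Syp, Snap25, Syn1, Stx1a and Rab3a, taken as every probe set (a group of probes for 1 transcript) whose only annotated gene symbol was one of them. Of 12488 probe sets in the table, 10 met this rule, for 8 of the 9 genes. Syn1 was assigned 0 of these probe sets and is not analysed here, while Vamp2 and Rab3a had 2 probe sets each. The genes were chosen by their shared role, with the measured KO minus WT difference of Syt5 in cerebellum already known. Differences between knockout and wild-type cerebellum are therefore given for these genes as a description, without a test.

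The arrays compared Aldh5a1-/- mice (KO) with wild-type mice (Wt in the labels, here WT). Aldh5a1 encodes succinate semialdehyde dehydrogenase, a mitochondrial enzyme of GABA breakdown. The 6 groups were KO and WT cerebellum, KO and WT hippocampus, and KO and WT cortex, with 3 animals a group and 1 array per animal and region. KO animals 3363, 3389 and 3403 and WT animals 3405, 3406 and 3396 each gave all 3 regions. Age, sex, strain and the way the allele was made are not given in the sources used here.

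A neuron releases transmitter when a vesicle fuses with the plasma membrane. The vesicle SNARE synaptobrevin (Vamp2) zips together with the plasma membrane SNAREs syntaxin-1A (Stx1a) and Snap25, and the calcium sensor synaptotagmin-1 (Syt1) couples this step to calcium entry. After fusion the ATPase Nsf pulls the SNARE bundle apart for reuse, while Rab3a, a GTPase, and synapsin I (Syn1) act on vesicle docking and on the reserve pool. Cerebellum, hippocampus and cortex hold different neurons, and synapses differ in which synaptotagmins and SNAREs they use.

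Values are array signals, that is, scaled fluorescence intensity on a linear scale, and are compared only within a probe set, because probe sets differ in brightness for the same amount of RNA. Median array signal ranged from 53.5 to 64.8, and 18 of 18 arrays lay closest to other arrays of their own labelled region. Cerebellar granule and Purkinje cell markers summed to 14793 to 15085 in KO and 14091 to 15534 in WT cerebellum. In cortex the same 9 genes summed to 1098 to 1136 in KO and 1101 to 1122 in WT. The tissue was bulk, so fewer cells of a type and less RNA per cell cannot be told apart. Of the 10 probe sets, 9 passed the filter on low signal. The exception, Rab3a probe set 161790_at, read 2.55 to 14.8 on the KO arrays and 4.58 to 23.3 on the WT arrays, close to the floor signal of 9.46, and was not tested.

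Regions were compared within each genotype with limma, a linear model that shares information on spread across probe sets, and p-values were adjusted by the Benjamini-Hochberg method over all 8382 probe sets kept. Most of these genes read lower in cerebellum than in the forebrain regions, in both genotypes. In KO brains, 7 of the 9 probe sets were called lower in cerebellum than in cortex, where 18.9% of all probe sets were called lower, and in WT brains 6 were, against 23% of all. Cerebellum was called lower than hippocampus for 6 of 9 in KO, where 20.2% of all were called lower, and for 5 of 9 in WT, against 15.2%. Hippocampus was called lower than cortex for 2 of 9 in each genotype, the probe sets of Stx1a and Snap25, beside 6.9% of all probe sets in KO and 6.18% in WT. None of the 9 was called higher in any of the 6 comparisons, in which the share of all probe sets called higher was, for KO and then WT, 17.9% and 17.8% (cerebellum minus cortex), 17.8% and 13.9% (cerebellum minus hippocampus) and 6.05% and 6.35% (hippocampus minus cortex). The median over the 9 was -0.96 for cerebellum minus cortex in KO, beside -0.05 over all probe sets, and -0.44 in WT, beside -0.07 over all. The KO and WT counts come from different animals. The fit behind all these counts does not pair the regions of 1 animal. With the animal as a random or fixed block, Vamp2 98925_at was called higher in WT hippocampus than in WT cortex (adjusted p = 0.0421 and 0.00719 with limma). With a fixed block it was also called higher in WT cerebellum than in WT cortex (adjusted p = 0.0298). Each count of cerebellum below a forebrain region includes Syt5, whose cerebellum arrays drew attention to it, and for KO that member is a description only.

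Other measures also differed between these regions. The 17 neuronal genes outside the vesicle cycle, such as those of neurofilaments and tubulin, summed to 14266 to 15185 in KO cerebellum, against 17680 to 18265 in KO cortex. In WT they summed to 15610 to 16449 in cerebellum, against 18873 to 19288 in cortex. Neither genotype overlapped between the regions. Of the 17, 8 were called lower and 2 higher in KO cerebellum than in KO cortex (median log2 -0.33), and 7 lower and 2 higher in WT (median -0.27). Of all probe sets, 18.9% were lower and 17.9% higher in KO, and 23% and 17.8% in WT. The ratio of 3′ to 5′ beta-actin control signal, a measure of RNA integrity, averaged 1.36 ± 0.0259 in KO and 1.28 ± 0.0951 in WT cerebellum, and 1.33 ± 0.0665 in KO and 1.30 ± 0.190 in WT hippocampus (SD, n = 3 each). In cortex it was 1.77 ± 0.124 in KO and 1.77 ± 0.140 in WT, and its lowest cortex value, 1.64, stood above the highest of the other regions, 1.46. The part of either measure in the region differences of the vesicle genes was not tested.

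Start regions are shown for 3 of the genes that lay lower in cerebellum than in cortex in both genotypes, Stx1a, Nsf and Syp. RefSeq (GRCm38.p6) gave start regions for 6 of the 9 genes, and the stretch shown is the 200 bases before the start, 5′ to 3′ on the gene's strand. Capitals mark the GC box (GGGCGG or CCGCCC), a motif of many promoters without a TATA box. Each sequence was searched on both strands for that motif, for the CCAAT box (CCAAT or ATTGG) and for the cAMP response element (TGACGTCA).
Stx1a, chr5:135023282-135023481, plus strand: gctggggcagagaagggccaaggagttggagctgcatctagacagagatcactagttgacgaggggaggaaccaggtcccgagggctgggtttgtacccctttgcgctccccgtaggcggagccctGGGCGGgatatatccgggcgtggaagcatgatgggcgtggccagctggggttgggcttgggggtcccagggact
Nsf, chr11:103954057-103954256, minus strand: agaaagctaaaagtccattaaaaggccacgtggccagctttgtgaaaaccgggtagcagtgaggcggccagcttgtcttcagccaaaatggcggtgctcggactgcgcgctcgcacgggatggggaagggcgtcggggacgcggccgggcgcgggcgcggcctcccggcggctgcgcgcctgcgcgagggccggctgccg
Syp, chrX:7638380-7638579, plus strand: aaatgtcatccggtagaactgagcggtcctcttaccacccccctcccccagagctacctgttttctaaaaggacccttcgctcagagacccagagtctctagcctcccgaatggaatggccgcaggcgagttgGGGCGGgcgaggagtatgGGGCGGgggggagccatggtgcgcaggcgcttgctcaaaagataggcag
The Stx1a stretch holds 1 GC box and the Syp stretch 2, while the Nsf stretch, 69% G and C, holds none of the 3 motifs. Over 32851 promoter windows of the same length, 31% hold a GC box, 29.3% a CCAAT box and 1.47% the cAMP response element. Syt1, also called lower in both genotypes, has 1 GC box and 2 CCAAT boxes in its stretch, which is not printed because it overlaps the annotated gene by a few bases. A match describes letters only, and its absence says nothing about the factor.

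**Figure D1:**
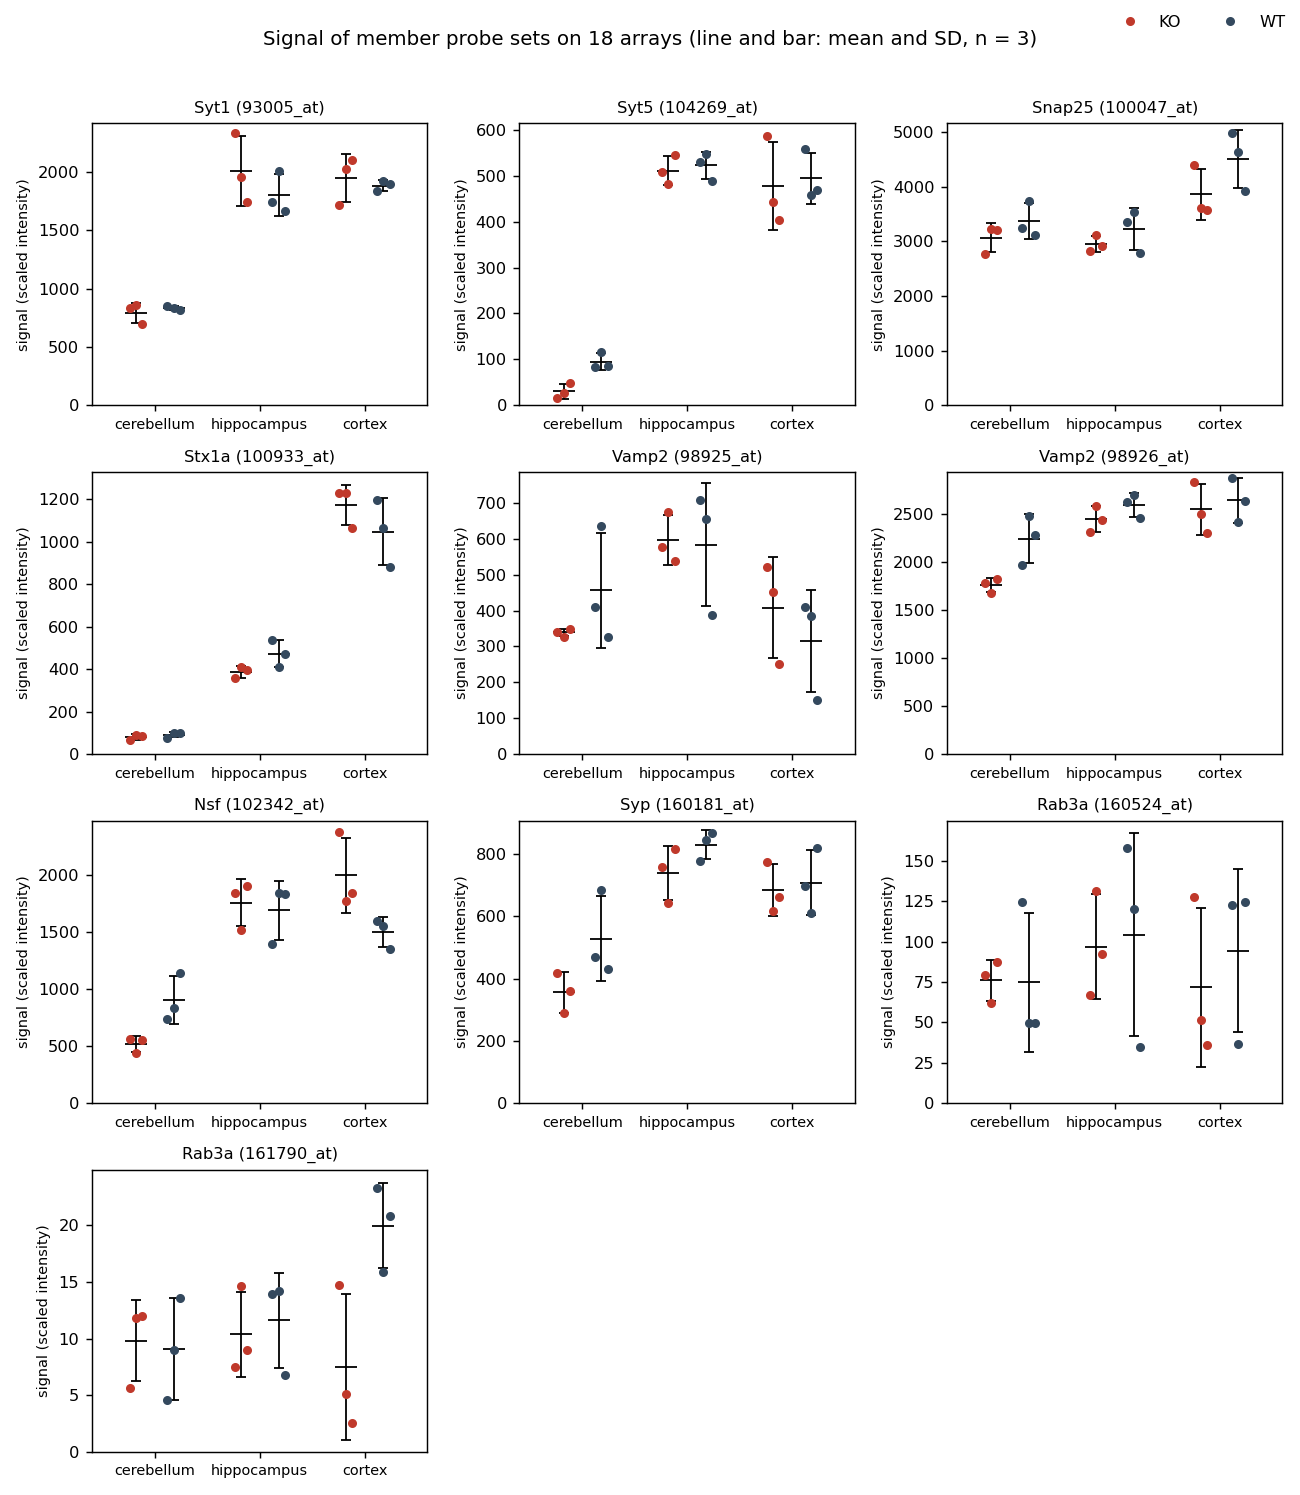
Signal (scaled intensity, linear axis from 0) of the 10 probe sets on each of the 18 arrays, by region, with KO left of WT. Points are animals, and lines and bars are the mean and SD of 3. Stx1a reads 63.9 to 101 in cerebellum and 882 to 1229 in cortex, while Snap25 lies between 2766 and 4974 on all arrays.

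Stx1a (probe set 100933_at; chr5:135023482-135051100, GRCm38.p6), the plasma membrane SNARE syntaxin-1A, had the largest region difference among these genes in WT. Its signal was 63.9, 89.5 and 85.6 in KO cerebellum and 76.6, 97.8 and 101 in WT cerebellum. Hippocampus read 358, 412 and 395 in KO and 539, 409 and 472 in WT. Cortex read 1229, 1229 and 1067 in KO and 1199, 1064 and 882 in WT. Each array of cerebellum lay below each of hippocampus, and each of hippocampus below each of cortex. Cerebellum was 14.9-fold lower than cortex in KO (log2 -3.89 ± 0.15 SE, adjusted p = 5.3e-13) and 11.4-fold lower in WT (log2 -3.51 ± 0.15, adjusted p = 2.5e-12). Hippocampus was 3.02-fold lower than cortex in KO (log2 -1.60, adjusted p = 1.3e-06) and 2.21-fold lower in WT (log2 -1.14, adjusted p = 6.8e-05). All 3 regions were thus ordered the same way in the KO and in the WT animals, and neighbours in that order differed beyond their spread.

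The calcium sensor Syt1 (93005_at; chr10:108497650-109010980) read 831, 856 and 695 in KO cerebellum and 849, 835 and 819 in WT cerebellum. In hippocampus it read 2337, 1955 and 1743 in KO and 1743, 2009 and 1664 in WT. In cortex it read 1718, 2025 and 2103 in KO and 1834, 1922 and 1898 in WT. Cerebellum did not overlap with either forebrain region, while hippocampus and cortex overlapped. Syt1 was 2.45-fold lower in cerebellum than in cortex in KO (log2 -1.30 ± 0.11, adjusted p = 4.0e-08) and 2.26-fold lower in WT (log2 -1.18 ± 0.11, adjusted p = 1.5e-07). Hippocampus minus cortex was 0.04 (95% interval -0.20 to 0.28) in KO and -0.07 (-0.30 to 0.17) in WT.

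Syt5 (104269_at; chr7:4539765-4547541), another calcium-binding synaptotagmin, had the widest relative range of the tested probe sets. It read 16.01, 27.4 and 47.8 in KO cerebellum and 82.2, 116 and 85.3 in WT cerebellum. In hippocampus it read 508, 482 and 545 in KO and 531, 548 and 489 in WT. In cortex it read 586, 444 and 404 in KO and 559, 457 and 469 in WT. The hippocampus and cortex values overlapped, and every cerebellum value lay well below both. In WT brains Syt5 was 5.28-fold lower in cerebellum than in cortex (log2 -2.40 ± 0.26, adjusted p = 7.3e-07) and 5.59-fold lower than in hippocampus (log2 -2.48, adjusted p = 5.1e-07). In KO brains the differences were -4.10 against cortex and -4.21 against hippocampus, given as a description without a test, because they rest on the KO cerebellum arrays that led to the gene being listed. The WT cerebellum arrays also entered the KO minus WT difference of Syt5. Hippocampus minus cortex was 0.11 (95% interval -0.43 to 0.66) in KO and 0.08 (-0.46 to 0.63) in WT.

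Nsf (102342_at; chr11:103821782-103954056), the ATPase that takes used SNARE bundles apart, read 556, 437 and 553 in KO cerebellum and 739, 829 and 1135 in WT cerebellum. In hippocampus it read 1840.0, 1518 and 1905 in KO and 1391, 1844 and 1827 in WT. In cortex it read 2373, 1766 and 1842 in KO and 1596, 1554 and 1346 in WT. Cerebellum lay wholly below the forebrain regions in both genotypes. Nsf was 3.86-fold lower in cerebellum than in cortex in KO (log2 -1.95 ± 0.16, adjusted p = 2.2e-08) and 1.69-fold lower in WT (log2 -0.75 ± 0.16, adjusted p = 0.00119). Against hippocampus the differences were -1.77 in KO (adjusted p = 7.7e-08) and -0.92 in WT (adjusted p = 0.00023). Hippocampus and cortex differed by -0.18 (95% interval -0.52 to 0.16) in KO and 0.16 (-0.18 to 0.50) in WT.

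Syp (160181_at; chrX:7638580-7653256) encodes synaptophysin, an abundant protein of the vesicle membrane. It read 418, 289 and 359 in KO cerebellum and 469.9, 685 and 430.3 in WT cerebellum. Hippocampus read 759.9, 644 and 816 in KO and 779, 846 and 868 in WT. Cortex read 776, 616 and 663 in KO and 696, 610.5 and 819 in WT. KO cerebellum lay below all KO forebrain arrays, whereas WT cerebellum overlapped with WT cortex through animal 3406. Cerebellum minus cortex was -0.96 ± 0.17 log2 for Syp in KO (adjusted p = 0.00017) and -0.44 ± 0.17 in WT (adjusted p = 0.0405). The WT call against cortex was lost without any 1 of animals 3396, 3403 and 3405, and over 15 alternatives its adjusted p ranged from 0.00447 to 0.44. Cerebellum minus hippocampus was -1.07 in KO (adjusted p = 5.5e-05) and -0.68 in WT (adjusted p = 0.00426, and 0.0632 without animal 3396, with a range of 0.00183 to 0.0632 over the alternatives).

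Snap25 (100047_at; chr2:136713439-136782428), the other plasma membrane SNARE, had a different order, with cortex above both other regions. It read 2766, 3224 and 3211 in KO cerebellum and 3234, 3739 and 3117 in WT cerebellum. In hippocampus it read 2819, 3117 and 2911 in KO and 3358, 3532 and 2791 in WT. In cortex it read 4396, 3606 and 3579.5 in KO and 4974, 4629.8 and 3924 in WT. No cortex value overlapped with the cerebellum or hippocampus values of the same genotype. Hippocampus minus cortex was -0.38 ± 0.12 log2 in KO (adjusted p = 0.0339) and -0.48 ± 0.12 in WT (adjusted p = 0.010). Cerebellum minus cortex was -0.33 in KO (adjusted p = 0.0320) and -0.42 in WT (adjusted p = 0.00737). Cerebellum minus hippocampus was 0.05 (95% interval -0.19 to 0.30) in KO and 0.06 (-0.18 to 0.30) in WT. The calls against cortex depended on single animals and on scaling. Hippocampus below cortex was lost in KO with no filter (adjusted p = 0.0735) and with no intensity trend (adjusted p = 0.0742), without animal 3363, 3389 or 3403 in KO and without 3405 in WT, and its adjusted p over 15 alternatives ranged from 0.0165 to 0.291 in KO and from 0.00617 to 0.0829 in WT. Cerebellum below cortex was lost under quantile normalization, with adjusted p = 0.296 in KO and 0.286 in WT. It was lost as well under median scaling, in KO with no filter (adjusted p = 0.068) and with no intensity trend (adjusted p = 0.0636), without 3363, 3389 or 3403 in KO and without 3405 in WT, and its adjusted p ranged from 0.0150 to 0.407 in KO and from 0.00429 to 0.286 in WT.

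Vamp2 (chr11:69088528-69092381), synaptobrevin-2, had 2 probe sets that did not give the same picture. The brighter, 98926_at, read 1783, 1676 and 1819 in KO cerebellum and 1972, 2472 and 2281 in WT cerebellum. It read 2308, 2581 and 2438 in KO and 2623, 2694 and 2456 in WT hippocampus, and 2832, 2500.2 and 2305 in KO and 2873, 2412 and 2632 in WT cortex. KO cerebellum lay below all KO forebrain arrays, and WT cerebellum overlapped with both WT forebrain regions. In KO brains its cerebellum signal differed by -0.53 ± 0.10 log2 from cortex (adjusted p = 0.00035) and by -0.47 ± 0.10 from hippocampus (adjusted p = 0.00095). In WT brains the differences of -0.24 against cortex (95% interval -0.44 to -0.03, adjusted p = 0.0609) and -0.21 against hippocampus (-0.42 to -0.01, adjusted p = 0.112) did not pass. Without animal 3406 the WT difference against cortex passed (adjusted p = 0.0237, with a range of 0.0237 to 0.628 over 15 alternatives).

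The dimmer Vamp2 probe set, 98925_at, varied more between animals, at 341, 328 and 349 in KO and 409.9, 636 and 326 in WT cerebellum. It read 577, 674 and 539.5 in KO and 709, 655 and 388 in WT hippocampus, and 521, 453 and 249.8 in KO and 411, 384 and 151 in WT cortex. The lowest WT hippocampus and WT cortex values both came from animal 3396, and the lowest KO values of these regions from animal 3403. No region difference of this probe set passed, including cerebellum minus hippocampus in KO (-0.81 ± 0.34, adjusted p = 0.0652) and hippocampus minus cortex in WT (0.97 ± 0.34, adjusted p = 0.0657). With the animal as a replicate block, which pairs the regions of 1 brain, these differences passed, with adjusted p of 0.0448 and 0.0421 for a random block and 0.00673 and 0.00719 for a fixed block. Over 15 alternatives the adjusted p ranged from 0.00673 to 0.253 in KO and from 0.00719 to 0.157 in WT. Cerebellum minus cortex in WT, 0.61 and opposite in sign to the other probe set, passed with a fixed block alone (adjusted p = 0.0298, against 0.154 without one and 0.0298 to 0.303 over the alternatives).

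Rab3a (160524_at; chr8:70754703-70758608), the vesicle GTPase, was dim and uneven between animals. It read 79.1, 62.2 and 87.2 in KO and 125, 49.7 and 49.8 in WT cerebellum. Hippocampus read 66.7, 131 and 92.4 in KO and 158, 120.4 and 34.9 in WT, and cortex 128, 51.3 and 36.1 in KO and 123, 36.3 and 125 in WT. All groups overlapped. No difference of Rab3a passed, and the intervals were wide, as for cerebellum minus cortex in KO (0.29, 95% interval -0.90 to 1.47) and in WT (-0.28, -1.47 to 0.91).

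**Figure D2:**
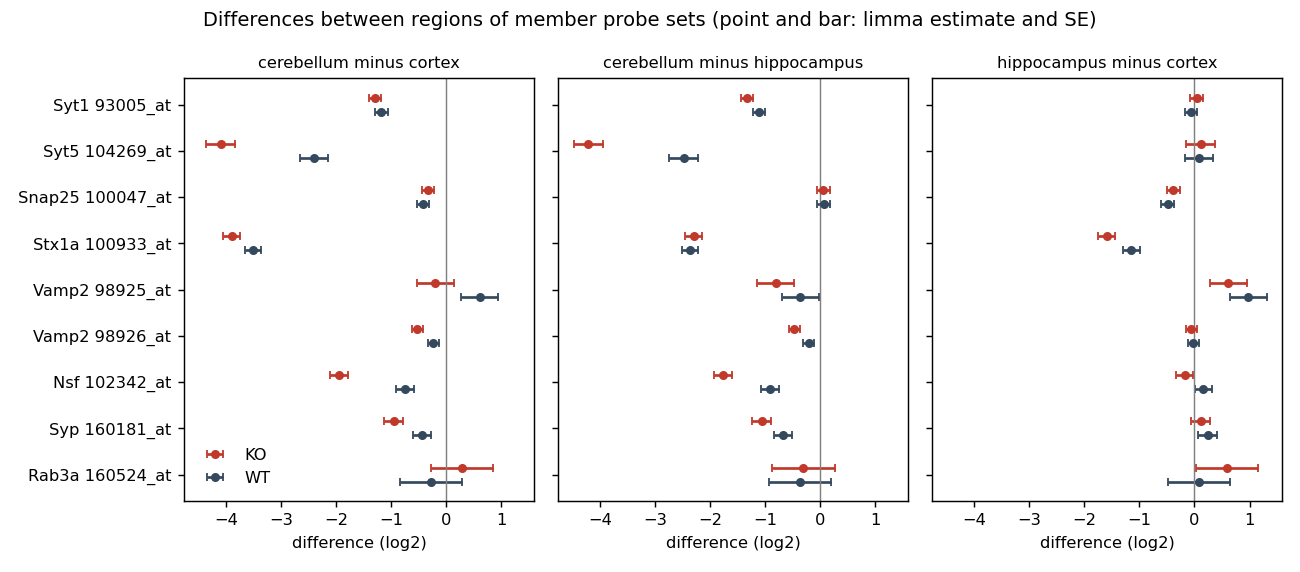
Differences between regions (log2, limma estimate with SE) of the 9 tested probe sets, KO above WT in each pair. Stx1a lies at -3.89 in KO and -3.51 in WT for cerebellum minus cortex, whereas Syt5 lies at -4.10 in KO and -2.40 in WT. Hippocampus minus cortex is negative and called for Stx1a and Snap25.

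In KO cerebellum, 8 of the 9 probe sets lay below WT on average, with a median log2 difference of -0.34, beside 0.03 over all probe sets. This is the comparison in which Syt5 was noticed, so the values describe these arrays and are not tested. Syt5 averaged 30.4 ± 16.1 in KO and 94.6 ± 18.9 in WT cerebellum (SD, n = 3 each), 3.39-fold lower in KO (log2 -1.76), and its highest KO value, 47.8, was below its lowest WT value, 82.2. Nsf averaged 516 ± 67.7 in KO and 901 ± 208 in WT (log2 -0.79), again without overlap. Syp averaged 355 ± 64.8 in KO and 528 ± 137 in WT (log2 -0.56), its highest KO value of 418 standing next to a lowest WT value of 430.3. Vamp2 98926_at averaged 1759.7 ± 74.4 in KO and 2242 ± 252 in WT (log2 -0.34). These 4 of 9 lay wholly below WT, where 7.74% of all probe sets did. The count and the median include Syt5, which was known to be lower, so neither measures an excess over all probe sets. By a different rule, the limma test with adjusted p under 0.05, 0.0358% of all were called lower.

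The others overlapped between genotypes in cerebellum. The log2 differences were -0.38 for Vamp2 98925_at, -0.21 for Stx1a, -0.13 for Snap25, -0.08 for Syt1 and 0.16 for Rab3a. The cerebellar difference of Syt5 was -1.30 with 16 added to each signal in place of the floor, and between -2.16 and -1.37 when single animals were left out. The KO arrays of Syt5 also spread widely, with an SD of 53.0% of the mean against 19.9% in WT. Syt5 passed the signal level of the filter, its array's 40th percentile, on 4 of 6 cerebellum arrays. That percentile was 29.6 to 39.8 over the arrays, and the KO values 16.01 and 27.4 lay under it.

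Other signals also lay lower in KO cerebellum. Of the 17 neuronal genes outside the vesicle cycle, 14 lay below WT, with a median of -0.28. Their summed signal was 14266 to 15185 in KO and 15610 to 16449 in WT, without overlap, and none passed the test. Summed oligodendrocyte markers were 8268 to 8895 in KO and 9182 to 10559 in WT cerebellum, also without overlap and with 0 of 10 genes called. Forebrain neuron markers summed to 1887.9 to 1888.4 in KO and 1869 to 1929 in WT cerebellum over 11 genes, with Nrgn and Camk2a under the floor on all KO arrays and Tbr1, Camk2a and Neurod6 on all WT arrays. Granule and Purkinje cell markers overlapped between the genotypes, as given above. The part of the neuronal and oligodendrocyte shifts in the values of the vesicle genes was not tested.

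**Figure D3:**
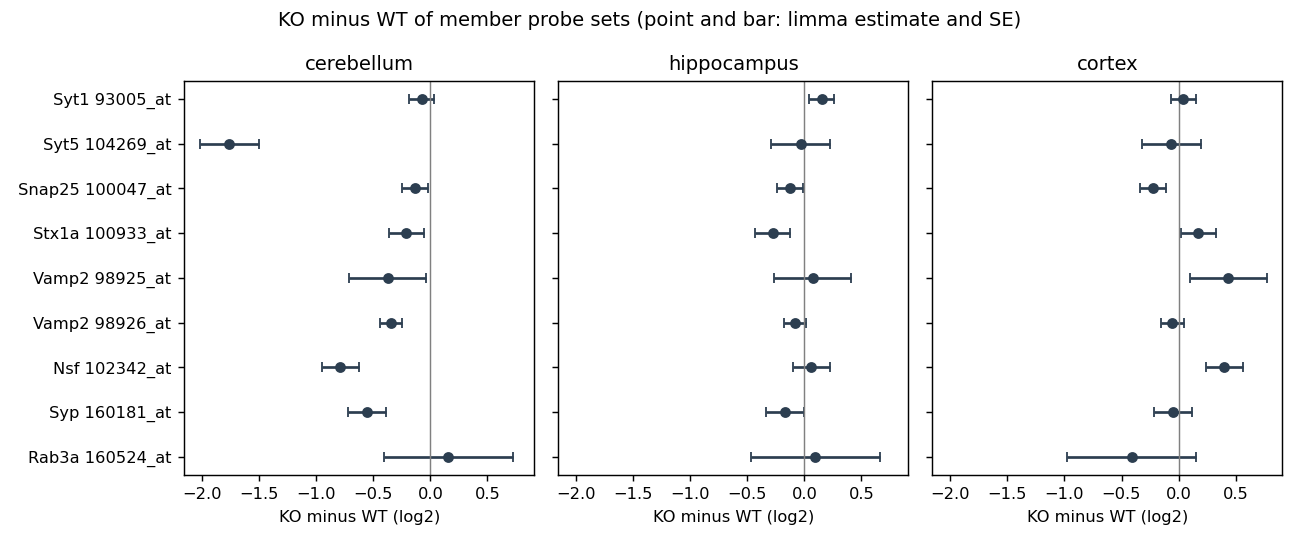
KO minus WT (log2, limma estimate with SE) of the 9 tested probe sets in each region. In cerebellum, where the values are a description, Syt5 lies at -1.76, Nsf at -0.79 and Syp at -0.56. In hippocampus and cortex no probe set passed the test, and Nsf in cortex lies at 0.40.

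Hippocampus showed no called difference for these genes. There, 0 of 9 probe sets passed in KO against WT with limma, while 0.119% of all probe sets did. An unadjusted p under 0.05 was found for 0 of the 9 and for 8.41% of all. Differences were small on both sides of 0, with 5 below and 4 above and a median of -0.03, beside 0.02 over all. The lowest adjusted p was that of Stx1a, which averaged 388 ± 27.7 in KO and 474 ± 65.1 in WT hippocampus (log2 -0.28, 95% interval -0.60 to 0.04, adjusted p = 0.66). Syt5 averaged 512 ± 32.0 in KO and 523 ± 30.4 in WT (log2 -0.03, interval -0.57 to 0.51). Nsf averaged 1754 ± 207 in KO and 1687 ± 257 in WT (log2 0.06, interval -0.28 to 0.40).

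Cortex likewise had 0 of 9 probe sets called in KO against WT with limma, where 0.286% of all probe sets were called. Only Nsf had an unadjusted p under 0.05, as did 10.2% of all. It averaged 1994 ± 331 in KO and 1499 ± 134 in WT cortex, and its 3 KO values, from 1766 up, stood above its 3 WT values, up to 1596, as 7.05% of all probe sets did. The difference was 0.40 log2 (95% interval 0.06 to 0.74, adjusted p = 0.381), and it did not pass under any of 15 alternatives (adjusted p 0.309 to 0.75). Snap25 averaged 3860.3 ± 464 in KO and 4509.6 ± 535 in WT cortex (log2 -0.22, interval -0.47 to 0.02, adjusted p = 0.527). Syt5 averaged 478 ± 95.6 in KO and 495 ± 55.5 in WT cortex (log2 -0.06, interval -0.61 to 0.48).

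Outside these genes, all 10 oligodendrocyte markers lay below WT in KO hippocampus and in KO cortex. Of these, 3 were called lower in hippocampus, where 0.119% of all probe sets were called. In cortex 7 were called lower, where 0.286% of all were called. Summed neuronal genes outside the vesicle cycle were 17680 to 18265 in KO and 18873 to 19288 in WT cortex, without overlap, and 16026 to 19174 in KO and 18619 to 19567 in WT hippocampus. The ratio of 3′ to 5′ Gapdh control signal, a measure of RNA integrity, was 0.804 ± 0.00773 in KO and 0.903 ± 0.0202 in WT cortex (SD, n = 3 each). It was 0.844 ± 0.0547 in KO and 0.841 ± 0.0429 in WT hippocampus, and 0.821 ± 0.0245 in KO and 0.796 ± 0.00677 in WT cerebellum. Their part in the values of the vesicle genes was not tested.

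The KO effect in hippocampus was compared with the KO effect in cortex directly. None of the 9 probe sets passed with limma, nor did any of the 8382 (0%), while 7.34% of all had an unadjusted p under 0.05. Stx1a was the 1 member among them, with a difference between the effects of -0.45 log2 (unadjusted p = 0.0493, adjusted p = 0.679), -0.28 in hippocampus and 0.17 in cortex. No other member had an unadjusted p under 0.05. Nsf differed by -0.34 (95% interval -0.82 to 0.14). The corresponding differences with cerebellum were not tested, because the cerebellar values of Syt5 were known when the genes were listed.

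The rest of the vesicle pathway was read from 6 lists of related genes, which held 96 genes tested. These lists, like the members, were chosen with earlier results of these data known, so their tests are not independent of those results. None of the 96 passed in KO against WT in any region. In cerebellum 53 lay below 0 and 43 above, with a median of -0.04, beside 0.02 over all 6249 genes, and in hippocampus and cortex the medians were -0.03 and 0.03. Among other synaptotagmins and calcium sensors, 4 of 7 lay below WT in cerebellum, and Syt11 had the lowest p (332.7 ± 25.3 in KO, 481 ± 83.7 in WT, log2 -0.52 ± 0.14, adjusted p = 0.143). Among SNARE regulators and disassembly factors, Cplx1, a complexin that clamps and promotes fusion, averaged 752 ± 69.4 in KO and 1210.2 ± 347 in WT cerebellum (log2 -0.65 ± 0.18, adjusted p = 0.158). Among other SNAREs, Vamp8, an endosomal SNARE, was 0.32 higher in KO cerebellum (adjusted p = 0.328).

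The genes of lowest p in the other lists and regions did not pass either. In cerebellum these were Rabac1 (-0.21), Scamp1 (0.25, but -0.07 on its other probe set) and Dnm2 (0.47). In hippocampus they were Sec22b (0.29), Unc13b (-0.60), Doc2b (0.35), Pclo (-0.34), Atp6v0e (0.41) and Ap2a2 (0.40). The other probe set of Sec22b read -0.08 there, and that of Ap2a2 0.03. In cortex they were Stx2 (0.50), Sncb (0.29), Doc2b (-0.53), Rabac1 (0.25), Atp6v1b2 (-0.23) and Hspa8 (-0.31). Adjusted p over these ran from 0.209 for Stx2 to 0.779 for Doc2b in hippocampus. The probe sets used for Scamp1 and Dnm2, like that of Vamp8, are of a type that can match several transcripts.

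Region differences in the same lists ran in both directions. Of the 96 genes, 16 were called higher and 27 lower in KO cerebellum than in KO cortex, and 19 higher and 26 lower in WT. These are 16.7% higher and 28.1% lower in KO, where 17.9% of all probe sets were higher and 18.9% lower, and 19.8% higher and 27.1% lower in WT, against 17.8% and 23% of all. Against hippocampus, 12 of the 96 were higher and 27 lower in KO cerebellum (12.5% and 28.1%, beside 17.8% and 20.2% of all probe sets), and 12 higher and 25 lower in WT (12.5% and 26%, beside 13.9% and 15.2%). The counts against cortex include Syt9, Syt17, Unc13b and Rab3d, which passed the filter on low signal mainly through regions where they read higher. The genes named from here on were those of lowest p for cerebellum minus cortex in WT, up to 3 from each list.

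Of 7 other synaptotagmins and calcium sensors, 3 were higher and 2 lower in cerebellum than in cortex in each genotype. Syt2, the calcium sensor of many fast hindbrain synapses, averaged 994 ± 151 in KO and 920.4 ± 245 in WT cerebellum. In cortex it averaged 240.5 ± 10.7 in KO and 196 ± 17.2 in WT, so that cerebellum was 4.10-fold higher in KO (adjusted p = 3.0e-08) and 4.61-fold higher in WT (adjusted p = 1.1e-08). Syt1 lay on the other side in the same arrays, at -1.30 in KO and -1.18 in WT.

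Syt9, another relative of Syt1, read 81.9, 90.8 and 44.9 in KO and 68.6, 79.1 and 81.3 in WT cerebellum, and was under the floor signal on all 6 cortex arrays. Taking cortex at the floor, cerebellum was at least 7.33-fold higher in KO and at least 8.04-fold higher in WT. Syt9 passed the filter on low signal through its 6 cerebellum arrays alone, so no test of it is given. Syt17 went the other way, averaging 11.4 ± 8.18 in KO and 12.6 ± 9.39 in WT cerebellum, with 1 of 3 arrays under the floor in each, against 167 ± 11.04 in KO and 144 ± 43.9 in WT cortex. Syt17 passed that filter on the 12 forebrain arrays and on no cerebellum array, and no test of it is given either. Both count among the called genes of their list.

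**Figure D4:**
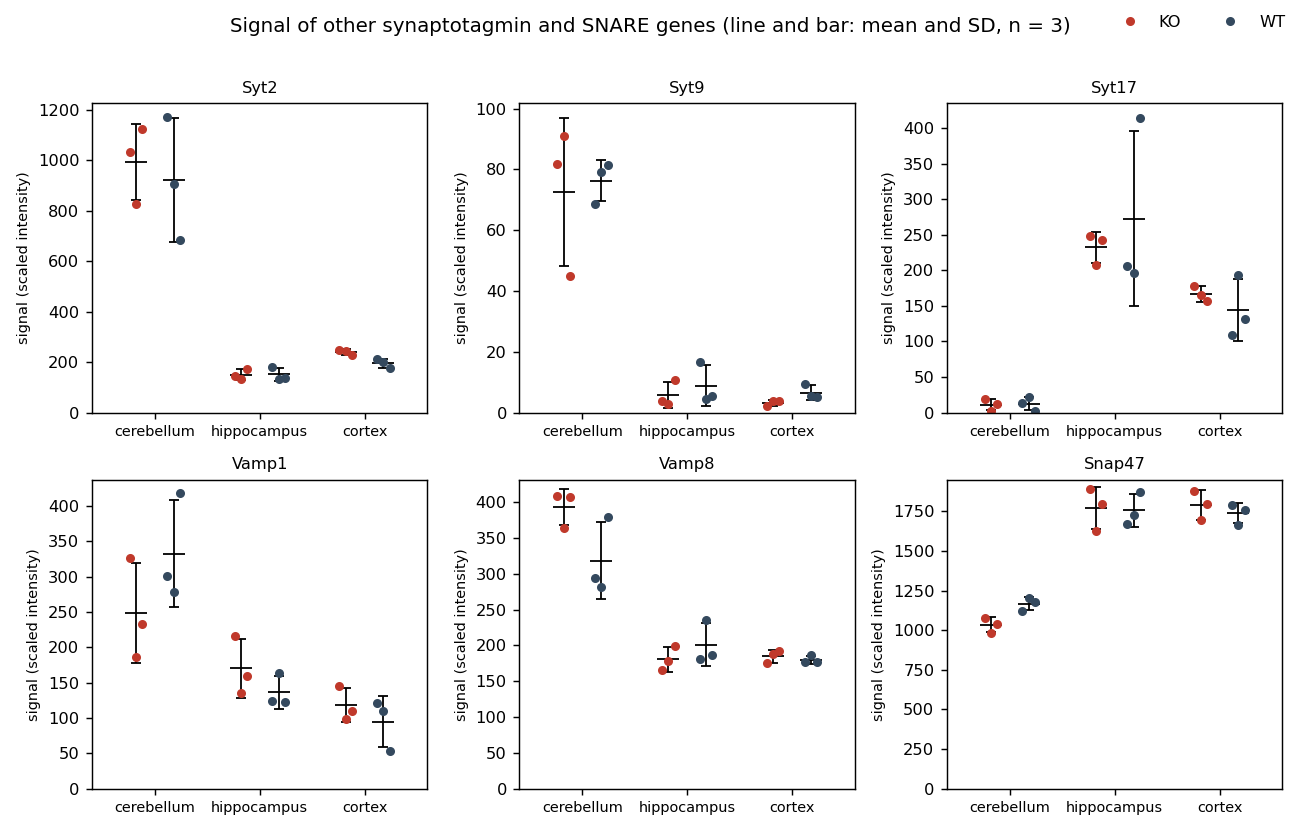
Signal (scaled intensity, linear axis from 0) of 6 relatives of the listed genes on each array, KO left of WT, with lines and bars for the mean and SD of 3. Syt2, Syt9, Vamp1 and Vamp8 are highest in cerebellum, and Syt17 and Snap47 are lowest there, with Snap47 at 1033 in KO and 1167 in WT cerebellum.

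Of 22 SNARE genes other than the members, 4 were called higher and 3 lower in KO cerebellum than in KO cortex (median log2 0.12), and 3 higher and 4 lower in WT (median -0.01), with 15 not called in each genotype. All probe sets gave 17.9% higher and 18.9% lower in KO, and 17.8% and 23% in WT. Vamp1, synaptobrevin-1, averaged 249 ± 70.9 in KO and 333 ± 75.6 in WT cerebellum, against 118 ± 24.1 in KO and 94.6 ± 36.0 in WT cortex. It was 2.08-fold higher in cerebellum in KO (adjusted p = 0.00587) and 3.67-fold higher in WT (adjusted p = 3.2e-05). Vamp8 was 1.09 log2 higher in cerebellum in KO and 0.81 in WT, although its probe set is of a type that can match several transcripts. Snap47, a relative of Snap25, averaged 1033 ± 47.1 in KO and 1167 ± 41.8 in WT cerebellum, against 1790 ± 92.1 in KO and 1738 ± 65.4 in WT cortex (log2 -0.79 and -0.57).

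Among 11 SNARE regulators and disassembly factors, 0 were called higher and 5 lower in KO cerebellum than in KO cortex, and 1 higher and 4 lower in WT. The shares of all probe sets, here and for the Rab3 list below, were 17.9% higher and 18.9% lower in KO, and 17.8% and 23% in WT. Napb, the adaptor that brings Nsf to SNARE bundles, was lower in cerebellum (log2 -0.62 in KO and -0.83 in WT). Cplx2, a complexin, was lower as well (-1.24 in KO and -1.06 in WT). Unc13b, a priming factor of the active zone, averaged 12.6 ± 4.36 in KO and 11.1 ± 3.26 in WT cerebellum, with 1 of 3 arrays under the floor in each, against 74.5 ± 9.88 in KO and 81.9 ± 25.4 in WT cortex. It passed the filter on low signal on 6 cortex, 2 hippocampus and 0 cerebellum arrays, so it is given without a test, although it counts among the genes called lower. Of 13 genes of the Rab3 cycle and active zone, 5 were called higher and 4 lower in KO cerebellum, and 4 higher and 4 lower in WT. Rab3d, a relative of Rab3a, averaged 108 ± 14.0 in KO and 129 ± 28.0 in WT cerebellum. In cortex it averaged 21.7 ± 13.8 in KO and 13.1 ± 0.627 in WT (log2 2.50 and 3.28), close to the floor signal of 9.46. Rab3d passed the filter on low signal on 6 cerebellum, 6 hippocampus and 1 cortex arrays. No test of it is given, although it counts among the genes called higher. The active zone scaffold Ppfia4 was higher by 1.14 in KO and 1.36 in WT, and Lin7b, a PDZ scaffold, was lower (-2.29 in KO and -2.38 in WT).

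Of 21 other vesicle membrane proteins, 3 were called higher and 7 lower in KO cerebellum than in KO cortex, and 1 higher and 4 lower in WT. Of 22 endocytosis genes, 1 was higher and 6 lower in KO, and 7 higher and 8 lower in WT. The pump subunits Atp6v1b2 (-0.39 in KO, -0.66 in WT) and Atp6v1d (-0.44 and -0.62) were lower in cerebellum, and the vesicle protein Syngr1 was higher (0.61 and 0.98). Among endocytosis genes Synj2 was lower (-1.21 in KO, -1.57 in WT) and the adaptor subunit Ap2a2 higher (0.45 and 0.74). Dnm2, whose probe set is of the same type as that of Vamp8, was lower in WT (-0.94, adjusted p = 0.00052) and did not pass in KO (-0.25, adjusted p = 0.293). A test of the difference between those genotypes was not run.

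For each member the kept probe sets of other genes were ranked by Pearson correlation of log2 signal over the 18 arrays, as a description, since arrays share regions and animals. Syt5 was most like Sst (r = 0.964), Rasal1 and Cdh13, and Sst averaged 40.6 in KO and 74.4 in WT cerebellum, against 1169 in KO and 1373 in WT cortex. Stx1a was most like Rgs4 (0.985), Ctnna2 and Ephb6, and Syt1 like Epha4 (0.983), Pde1a and Prkcb. The gene most like Nsf was Snap47 (0.955), followed by Ikzf1 and Dlgap4. Syp was most like Ddx54 (0.956), B4galt6 and Cbx5, Snap25 like App (0.914), Stmn1 and Meg3, and Vamp2 like Pdgfa (0.909), L1cam and Abcb8. Rab3a, dim and uneven, reached only 0.672, with Aldoa.

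Between members, Syt5 and Nsf had the highest correlation over the 18 arrays (r = 0.94), and Rab3a stayed between 0.0053 and 0.232 with the others. When each array was taken as its deviation from its own group mean, the correlation of Syt5 with Nsf was 0.131, and that of Syt5 with Syt1 was -0.484 against 0.907 before.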

How the data were processed

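RNA of cerebellum, hippocampus and cortex from 3 KO and 3 WT mice was hybridised to 18 arrays, and replicates are separate animals per the labels. Region was read from title and description, since the source label names hippocampus throughout. The deposited table gives intensity per probe set, linear, and as deposited the 2% trimmed mean was 150.07 to 150.08 on each array. Gene positions are from the RefSeq table (GRCm38.p6). The software was not given in the sources used here. The table held 0 other per-sample columns.

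Without 66 controls, values under the 20th percentile (9.46) were raised to it, log2 was taken, and probe sets above their array's 40th percentile on at least 3 arrays were kept (8382). A model of 6 group means was fitted to 18 arrays with limma 3.58.1 (R 4.3.3), with an intensity trend and 12 residual degrees of freedom. All tests were two-sided, with a Benjamini-Hochberg threshold of 0.05 over all kept probe sets. An exact permutation test of 3 against 3 cannot go below 0.1.

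Members and gene lists were chosen with earlier results of these data known. Named list genes were those called in a KO comparison (up to 4), otherwise the gene of lowest p, and for regions up to 3 of lowest p in cerebellum minus cortex, WT. The brightest probe set stood for a gene. The 3 most alike genes were those of highest correlation. The regions of 1 animal share a brain, so its number pairs them. Residuals of the same animal correlated with a median r of 0.135, against -0.0634 between animals. Residuals of the 3 animals of a group sum to 0, so the second value is tied to the first and is no separate baseline. Alternatives were median scaling, quantile normalization, 16 added or no floor, a 60th percentile filter or none, no trend, a region's own arrays, the animal as a block and each animal left out.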

Additional observations from a re-analysis of the deposited data

Results flagged for a closer look

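Nsf was the only probe set of these genes whose KO values lay wholly on one side of WT in one region and wholly on the other side in another. All 3 KO values were below all 3 WT values in cerebellum, with a log2 difference of -0.79, and all 3 KO values were above all 3 WT values in cortex, with 0.40. The difference between these effects was not tested, since the cerebellar KO minus WT difference of Syt5 was known when the genes were listed. The cortex value alone did not pass (adjusted p = 0.381 with limma). Groups of 3 arrays are too small for the check on single outlying arrays.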

How the results depend on the processing

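The 0 calls among the 9 probe sets in KO against WT hippocampus and cortex, and in the difference between them, stood under every alternative run. For hippocampus minus cortex in KO the count was 2, and 1 with no filter and with no intensity trend, Snap25 losing its call (adjusted p 0.0735 and 0.0742). With single animals left out, the counts were 6 to 7 for cerebellum minus cortex in KO, 4 to 7 in WT, 6 to 7 and 4 to 5 for cerebellum minus hippocampus, and 1 to 2 in each genotype for hippocampus minus cortex, and Syt5 in cerebellum was -2.16 to -1.37. The replicate block gave 7 calls for cerebellum minus hippocampus in KO (6 without it), 3 for hippocampus minus cortex in WT (2 without), and, as a fixed block, 7 for cerebellum minus cortex in WT (6 without), all through Vamp2 98925_at, and changed no other member's call. That probe set also passed for hippocampus minus cortex in WT under median scaling (0.0455) and for cerebellum minus hippocampus in KO without 3396 (0.0074). No called difference changed sign. Of 1350 recomputed differences, 43 changed sign, none called in either fit. Median scaling shifted the median of all probe sets by 0.17 for cerebellum minus cortex in WT, 0.11 for cerebellum minus hippocampus in WT and 0.12 in KO. Under it Syp also lost cerebellum below cortex in WT (adjusted p = 0.23), as it did with no filter (0.0844) and no intensity trend (0.0653).

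Counts over all probe sets moved more. KO against WT gave 10 calls in hippocampus, 3 in cerebellum and 24 in cortex, and 1, 0 and 3 on the region's own 6 arrays. With single animals left out, the range was 3 (without 3405) to 22 (without 3396) in hippocampus, 0 (without 3389 or 3406) to 121 (without 3405) in cerebellum, and 6 (without 3405) to 32 in cortex. Cerebellum gave 15 under median scaling, 9 with the 60th percentile filter, 5 with no filter and 1 with no intensity trend. The difference between the effects in hippocampus and cortex gave 0, and 4 with no filter. Hippocampus minus cortex gave 1085 in KO and 1050 in WT, and down to 447 and 465 with animals left out, and cerebellum minus hippocampus in WT gave 2438, and 1624 without 3406. The cause was not tested. Signal near the floor limits Rab3a 161790_at and cerebellar Syt5. Dim signal and spread between animals limit Rab3a 160524_at, and 3 animals a group limit all tests.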
